A study of Mus musculus with 6 samples.

Results

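Kainate receptors are described here through 7 genes, the 5 subunit genes *Grik1* to *Grik5* and the auxiliary protein genes *Neto1* and *Neto2*, which were chosen by name from the 56923 genes listed in RNA-seq of mouse prefrontal cortex. The samples were 3 libraries from *Pla2g4e* knockout mice (KO) and 3 from wild-type mice (WT), and the design asked which transcripts differ in this cortical area when the lipid-modifying enzyme gene *Pla2g4e*, of the cytosolic phospholipase A2 family, is lost. The KO mice carried the constitutive *Pla2g4e* tm2a allele, in which a *LacZ* cassette traps the transcript and a null is predicted, on the strain C57BL/6N-A tm1Brd, so that every cell type carried the mutation. The sources used here do not say whether the WT mice of these libraries carried the A tm1Brd allele of the coat-colour gene. Polyadenylated RNA was sequenced in strand-specific libraries. The labels give no age, sex or litter for these libraries, and nothing states that replicates are separate animals, so p-values measure only the spread between these samples.

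Kainate receptors are glutamate-gated cation channels built from 4 subunits. GluK1, GluK2 and GluK3, from *Grik1*, *Grik2* and *Grik3*, bind kainate with low affinity and can form channels by themselves, whereas GluK4 and GluK5, from *Grik4* and *Grik5*, bind it with high affinity and need a low-affinity partner to reach the membrane as working receptors. *Neto1* and *Neto2* encode single-pass membrane proteins that associate with the subunits and slow their gating. In cortex these receptors act on both sides of the synapse, modulating transmitter release and carrying small, slow excitatory currents.

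The stretch of coding sequence around the pore loop is shown because it holds the site at which *Grik1* and *Grik2* transcripts are known to be edited from a glutamine to an arginine codon by adenosine deaminases, an exchange that lowers calcium permeability. The 27-base windows were read from GENCODE M21 transcripts (5′ to 3′, coding strand, with T for U), and the capitals mark the pore-loop glutamine codon, numbered from the start codon as 1.
Grik1, codon 636: ggagctctcatgCAGcaaggatcggag
Grik2, codon 621: ggagctctcatgCAGcaaggttctgag
Grik3, codon 623: ggctccctgatgCAGcaaggatctgaa
Grik4, codon 606: ggaggcttcatgCAGcaaggctccact
Grik5, codon 605: ggtggcttcatgCAGcagggctcggag
All 5 subunit genes encode the glutamine with the same CAG codon in this reference. The codons lie, on GRCm38, at chr16:87940542-87940544 on the minus strand in exon 13 of 18 (*Grik1*), chr10:49244329-49244331 on the minus strand in exon 13 of 17 (*Grik2*), chr4:125691207-125691209 on the plus strand in exon 12 of 16 (*Grik3*), chr9:42547623-42547625 on the minus strand in exon 16 of 21 (*Grik4*) and chr7:25022497-25022499 on the minus strand in exon 15 of 20 (*Grik5*). In *Grik1*, *Grik2* and *Grik3* the window runs over an exon junction, and in *Grik4* and *Grik5* it lies in 1 exon. *Grik1* and *Grik2* shared 25 of 27 bases, the closest pair, and *Grik3* and *Grik4* shared 17, the most distant. Counts per gene do not tell edited from unedited transcripts, so the values below say nothing of editing.

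In the files (GRCm39, GENCODE M31) the channel-forming subunit genes span chr16:87692788-88087153 (*Grik1*, minus strand), chr10:48970929-49664862 (*Grik2*, minus) and chr4:125384493-125607966 (*Grik3*, plus). The high-affinity subunit genes span chr9:42429431-42855789 (*Grik4*, minus) and chr7:24709274-24771771 (*Grik5*, minus), and the auxiliary genes chr18:86413077-86524843 (*Neto1*, plus) and chr8:86363217-86427553 (*Neto2*, minus). *Grik2* is the longest locus, at 693.9 kb with 13246 bases of merged exons, and *Grik5* the shortest, at 62.5 kb with 5168. Fragments over these exons were counted by strand, and *Grik4* alone of the 7 shared exonic bases with another gene on its own strand, 59 of its 5962.

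Library totals ran from 11792463 to 14594230 counted fragments (read pairs), of which 9549 to 11341 fell on the 7 genes, and mitochondrial genes took 6.13% to 7.41%. *Pla2g4e* itself stood at 5.95, 8.12 and 7.97 counts per 1000000 fragments after TMM scaling (CPM) in KO libraries 1, 2 and 3 and at 7.84, 11.3 and 13.2 CPM in WT libraries 1, 2 and 3. The groups overlapped, and the difference of -0.55 on the log2 scale (SE 0.21, limma-voom) had an unadjusted p of 0.0205 and an adjusted p of 0.635. WT library 1 alone of the WT libraries lay within the KO range. Without it the difference was -0.76 (unadjusted p = 0.00113), and among the 4 libraries with Y-linked expression it was -0.60 (unadjusted p = 0.00299). The difference was -0.39 without KO library 1 (unadjusted p = 0.0923) and -0.39 without WT library 3 (unadjusted p = 0.0943, all limma-voom). Over 18 alternatives it was below 0 in all, from -0.76 to -0.39, at an unadjusted p under 0.05 in 15 and after adjustment in 0. The counts cover all exons of *Pla2g4e* together, and exons before and after the cassette were not compared. The study saw no Pla2g4e protein in hippocampus of knockout mice by Western blot or immunostaining, a measure and region other than those here. Some libraries stood apart in markers of neighbouring tissue. The summed level of 8 olfactory bulb markers was 429, 126 and 92.4 CPM in KO libraries 1 to 3 and 128, 49.1 and 92.7 CPM in WT libraries 1 to 3, and 8 of 8 had a higher fitted level in KO (median 1.148 on the log2 scale, 3 at an unadjusted p under 0.05). The summed level of 10 striatal neuron markers was 348.8 to 458.7 CPM in KO and 262.4 to 434.9 CPM in WT, with 10 of 10 higher in KO (median 0.27, 1 at an unadjusted p under 0.05), and 4 of 6 hippocampal and thalamic markers were higher (median 0.10, 2 at an unadjusted p under 0.05). Cortical excitatory neuron markers were detected in each library (*Slc17a7*, the vesicular glutamate transporter, at 1161 to 1628 CPM), with a summed level over 12 markers of 1884 to 2313 CPM in KO and 2223 to 2526 CPM in WT, and 9 of 12 were lower in KO (median -0.13 on the log2 scale, 2 at an unadjusted p under 0.05). For glial and vascular cells, 10 of 10 astrocyte, 9 of 10 oligodendrocyte and 3 of 6 oligodendrocyte precursor markers were fitted higher in KO (medians 0.06, 0.16 and 0.0048) and 7 of 8 endothelial markers lower (median -0.08), with 0 at an unadjusted p under 0.05 in these 4 lists. Of the microglia markers 7 of 9 were lower (median -0.02), 1 of them at an unadjusted p under 0.05. KO library 1 and WT library 1 lacked expression of Y-linked genes, and the other 4 libraries had it.

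Of the 19084 genes reaching 6 fragments in 1 library or more, 0 (0.00%) passed an adjusted p of 0.05 by limma-voom with Benjamini-Hochberg adjustment, and 1492 (7.82%) had an unadjusted p under 0.05. The edgeR quasi-likelihood test called 0 after adjustment (0.00%), with 1507 (7.90%) at an unadjusted p under 0.05, and DESeq2 called 1 (0.00524%), with 902 (4.73%). All 7 kainate receptor genes passed the filter on low counts, 0 of 7 passed the adjusted threshold with any of these tools, and 1 of 7, *Grik2*, had an unadjusted p under 0.05 by limma-voom. The unadjusted p of *Grik2* was 0.0445 by the edgeR quasi-likelihood test and 0.0873 by DESeq2.

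Transcript levels per length were led by *Grik5*. On the TPM scale (transcripts per 1000000, from the exon length per gene in the files and TMM-scaled), the mean over 6 libraries was 192.7 ± 9.97 (SD) for *Grik5*, 74.1 ± 2.31 for *Neto1*, 67.4 ± 6.29 for *Grik3*, 44.5 ± 4.10 for *Neto2*, 24.5 ± 2.03 for *Grik2*, 21.8 ± 2.41 for *Grik4* and 10.4 ± 1.21 for *Grik1*. The lowest *Grik5* level, 176 TPM, was above the highest *Neto1* level, 76.6 TPM, and *Grik5* exceeded *Neto1* by 2.41 to 2.74 times within a library. *Neto1* and *Grik3* overlapped in range, although *Neto1* was the higher in 6 of 6 libraries, by 1.004 to 1.27 times. *Grik3* exceeded *Neto2* by 1.38 to 1.83 times and *Neto2* exceeded *Grik2* by 1.56 to 2.24 times, without overlap of the ranges. *Grik2* and *Grik4* did not differ beyond their spread, with *Grik2* the higher in 4 of 6 libraries and a ratio of TPM between 0.939 and 1.41. *Grik4* exceeded *Grik1* by 1.66 to 2.86 times in 6 of 6 libraries.

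**Figure D1:**
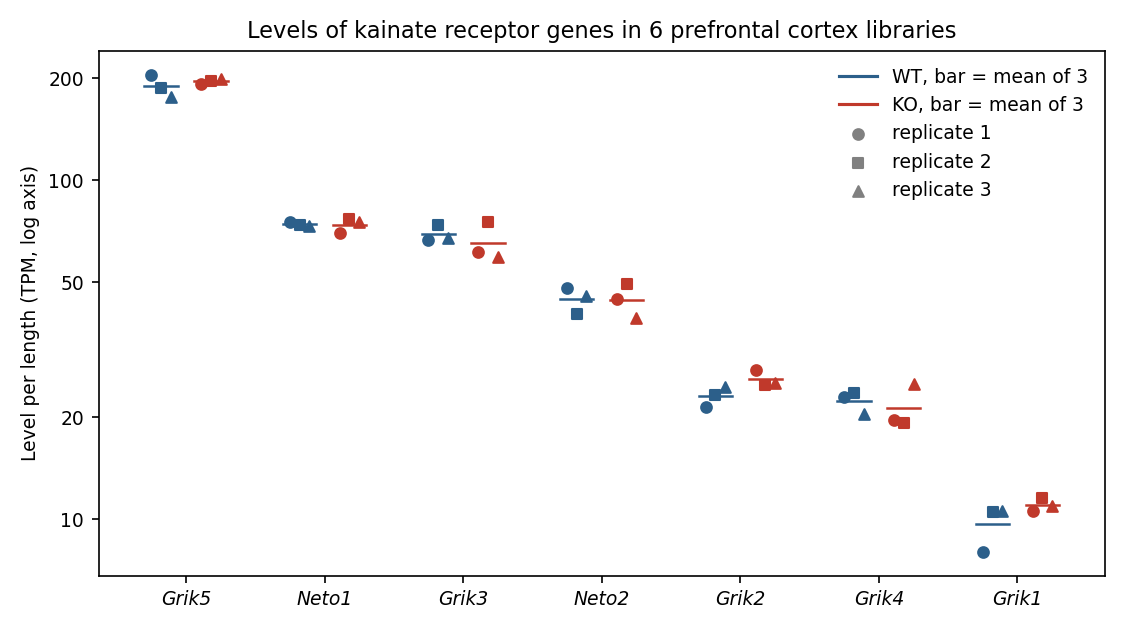
Level of each kainate receptor gene in TPM (logarithmic vertical axis) in the 3 WT libraries (blue) and 3 KO libraries (red), with symbols for the replicate number and bars at the group means. *Grik5* lies between 176 and 205 TPM in all 6 libraries, above each of the other 6 genes, and *Grik1* lies lowest, at 8.01 to 11.5 TPM.

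This order depended on the length assigned to a gene. *Grik1* has 6721 bases of merged exons in the files, but its transcript with the longest coding sequence in GENCODE M21 is 2942 bases long; for *Grik2* these lengths are 13246 and 9427 bases, and for *Grik5* 5168 and 3763 bases. With that transcript's length instead of merged exons, mean values became 264.6 for *Grik5*, 34.4 for *Grik2*, 23.7 for *Grik1* and 22.1 for *Grik4*. Fragments over all merged exons were still counted, and lengths were changed for the members alone without rescaling, so these values are not TPM. *Grik1* and *Grik4* then took rank 6 or 7 according to the library. The ranks of *Grik5*, *Neto1*, *Grik3*, *Neto2* and *Grik2* (1 to 5) were the same in 6 of 6 libraries with that length. No stretch of 50 bases in the transcripts of a member occurred in another member.

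Expressed as shares of the summed TPM of the 5 subunit genes, *Grik5* made up 60.8% ± 1.84 (SD over 6 libraries), *Grik3* 21.3% ± 1.90, *Grik2* 7.74% ± 0.764, *Grik4* 6.88% ± 0.728 and *Grik1* 3.27% ± 0.403. Transcripts of the high-affinity subunits, *Grik4* and *Grik5* together, thus accounted for 67.7% ± 2.10 and those of the channel-forming subunits for 32.3% ± 2.10. The high-affinity share was 68.0% ± 2.12 in KO and 67.4% ± 2.51 in WT (SD, n = 3 each), and KO and WT overlapped in the share of each of the 5 genes. Without correction for length (CPM), *Grik5* made up 46.9%, *Grik3* 28.5%, *Grik2* 15.3%, *Grik4* 6.12% and *Grik1* 3.28%, and *Grik4* and *Grik5* together 53.0%. With the length of the transcript of longest coding sequence, the shares were 64.2% for *Grik5*, 16.4% for *Grik3*, 8.36% for *Grik2*, 5.75% for *Grik1* and 5.36% for *Grik4*. The 2 auxiliary genes kept a *Neto1* to *Neto2* ratio of TPM of 1.68 ± 0.163, and their sum was 0.375 ± 0.0157 of the summed subunit TPM. Within each library *Neto1* exceeded *Neto2*, by 1.55 to 1.92 times.

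**Figure D2:**
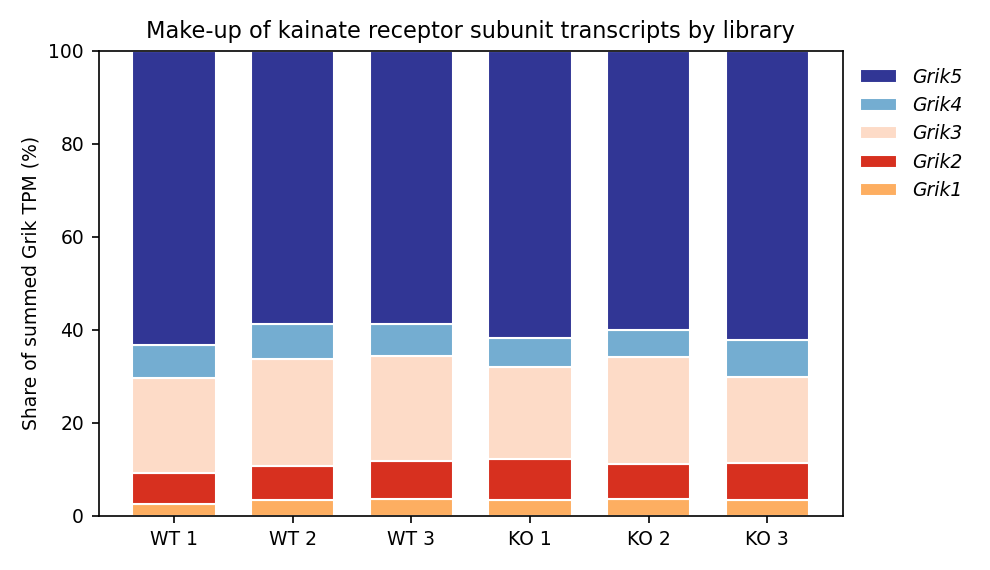
Share of each subunit gene in the summed TPM of *Grik1* to *Grik5* (vertical axis, percent), 1 stacked bar per library. *Grik5* fills 58.9% to 63.3% of each bar and *Grik3* 18.6% to 23.1%, with KO and WT bars overlapping for each gene.

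Set against the AMPA and NMDA receptor families, summed *Grik* transcripts stood at 317 ± 9.96 TPM (SD over 6 libraries), AMPA receptor subunits at 726 ± 28.9 TPM and NMDA receptor subunits at 465 ± 12.8 TPM. The kainate subunits were 21.01% ± 0.778 of the sum of these 3 families, 20.8% ± 0.660 in KO and 21.3% ± 0.941 in WT. Without correction for length (CPM) this share was 13.7% ± 0.479 over the 6 libraries. With merged-exon lengths, the most abundant single subunits of the 2 larger families were *Gria1* at 273 ± 17.6 TPM and *Grin1*, the obligatory NMDA receptor subunit, at 237 ± 12.7 TPM. *Grik5*, at 193 ± 9.97 TPM, was lower than *Grin1* in the means, and its highest library, at 205 TPM, was below the lowest of *Grin1*, at 224.5 TPM. These ranks depend on length as well, since without it (CPM, mean over 6 libraries) *Gria2* stood at 899.8 against 427 for *Gria1* and *Grin2b* at 681 against 595 for *Grin1*, and no other length was tried for these families.

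Between genotypes, *Grik2*, which encodes the channel-forming subunit GluK2, was at 94.7, 85.3 and 86.5 CPM in KO libraries 1, 2 and 3 and at 73.8, 79.97 and 84.2 CPM in WT libraries 1, 2 and 3. The KO libraries lay above the WT libraries without overlap, but the lowest KO value exceeded the highest WT value by 1.24%. The fitted difference was 0.17 on the log2 scale (SE 0.08, 95% interval 0.0012 to 0.33, or 1.12-fold), with an unadjusted p of 0.0486 and an adjusted p of 0.636 (limma-voom), so it did not pass the test. In such bulk tissue, more cells of a type and more RNA per cell cannot be told apart. KO library 1, which held the highest *Grik2* level, also held the highest summed olfactory bulb markers, and WT library 1, which held the lowest, had the lowest summed oligodendrocyte markers, 1770 CPM against 1960 to 2927 CPM in the other 5 libraries. WT library 1 had the second-highest olfactory bulb sum, and KO library 1, at 2268 CPM, was below 3 other libraries in oligodendrocyte markers. Summed cortical excitatory neuron markers were lowest in KO library 1, at 1884 CPM, and highest in WT libraries 1 and 2, at 2516 and 2526 CPM, which were the lowest in *Grik2*. The part of these 3 lists in the result was not tested. With striatal markers as a covariate the *Grik2* difference was 0.15 (SE 0.08, unadjusted p = 0.1075, limma-voom). Without KO library 1 the difference was 0.12 (unadjusted p = 0.175), without WT library 1 it was 0.11 (unadjusted p = 0.176), and among the 4 libraries with Y-linked expression, which leave out both, it was 0.06 (unadjusted p = 0.443; all limma-voom).

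*Grik1* encodes GluK1, a channel-forming subunit prominent in interneurons. Its level was 18.5, 20.1 and 19.1 CPM in KO libraries 1, 2 and 3, against 13.9, 18.3 and 18.4 CPM in the WT libraries in the same order, from 178 to 273 fragments a library. KO again lay above WT without overlap, by 0.468% between the nearest libraries, and WT library 1 was far below the other 5. The difference was 0.19 on the log2 scale (SE 0.12, 95% interval -0.07 to 0.46, unadjusted p = 0.138, adjusted p = 0.681, limma-voom). Without WT library 1 it was 0.06 (SE 0.11, unadjusted p = 0.587). With striatal markers as a covariate over all 6 libraries it was 0.13 (SE 0.13, unadjusted p = 0.331, limma-voom). Summed interneuron markers were at 1139 to 1584 CPM in KO and 1143 to 1434 CPM in WT, with WT library 1 the highest of the WT libraries. The 12 markers did not move together, with 5 fitted higher and 7 lower in KO (median -0.15, range -0.50 to 0.46 on the log2 scale), 1 and 4 of them at an unadjusted p under 0.05 (limma-voom) and 0 after adjustment; their part in the *Grik1* values was not tested.

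The 2 genes *Grik1* and *Grik2* were thus 2 of 7 members with all KO libraries above all WT libraries, and 0 of 7 lay below; among the 19084 genes tested, 6.72% lay above and 6.29% below. This placement held for both genes with library totals alone, RLE size factors and upper-quartile factors in place of TMM, although with RLE factors the *Grik1* gap was 0.0566%.

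**Figure D3:**
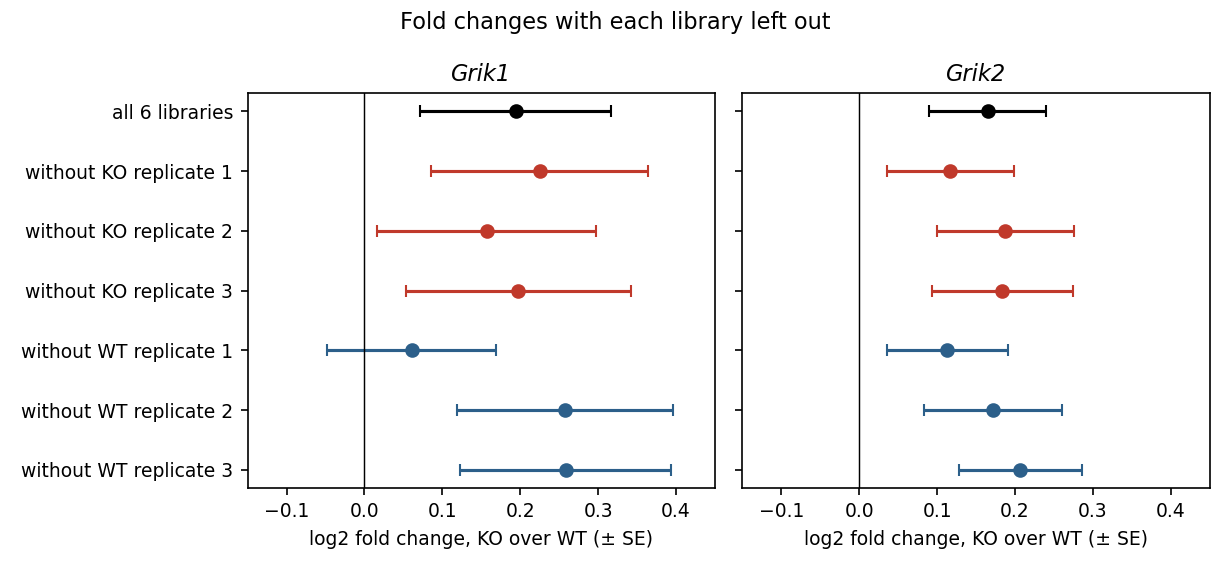
Fitted log2 fold change of *Grik1* and *Grik2*, KO over WT (horizontal axis, points with ± SE, limma-voom), with all 6 libraries (black) and with each KO (red) or WT (blue) library left out. The *Grik1* value is 0.06 without WT replicate 1 and 0.16 to 0.26 without any 1 of the others, and the *Grik2* value runs from 0.11 to 0.21.

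*Grik3*, the remaining channel-forming subunit gene, was measured at 143, 175 and 138 CPM in KO libraries 1, 2 and 3 and at 155, 171 and 157 CPM in WT libraries 1, 2 and 3. The groups overlapped because KO library 2 held the highest value of all 6 while the other 2 KO libraries held the lowest ones. The difference was -0.09 on the log2 scale (SE 0.09, 95% interval -0.28 to 0.10, unadjusted p = 0.315, adjusted p = 0.780, limma-voom). Without KO library 2, which had the highest summed striatal markers, it was -0.20 with an unadjusted p of 0.0273 and an adjusted p of 0.664. With striatal markers as a covariate over all 6 libraries it was -0.13 (unadjusted p = 0.223). It was -0.03 without KO library 3 (unadjusted p = 0.775, limma-voom) and -0.05 without either KO library 1 or WT library 2. Without WT library 1 it was -0.12, and without WT library 3 it was -0.11. The KO libraries varied by 13.1% of their mean in *Grik3*, against 2.24% from counting error alone, whereas the WT libraries varied by 5.43%.

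Of the high-affinity subunit genes, *Grik4* was at 30.2, 29.7 and 38.8 CPM in KO libraries 1, 2 and 3 and at 35.4, 36.5 and 31.6 CPM in WT libraries 1, 2 and 3. KO library 3 was the highest of all 6 and the other 2 KO libraries were the lowest, a spread of 15.6% of the KO mean where counting error gives 4.81%. The difference was -0.08 on the log2 scale (SE 0.11, 95% interval -0.32 to 0.16, adjusted p = 0.858, limma-voom). It was -0.20 without KO library 3, -0.14 without WT library 3, -0.04 without WT library 2, -0.02 without either KO library 1 or KO library 2 and -0.0078 with striatal markers as a covariate.

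*Grik5*, the most abundant member, stood at 257, 263 and 267 CPM in KO libraries 1, 2 and 3 and at 275, 251 and 236 CPM in WT libraries 1, 2 and 3. The KO values lay inside the WT range, and the KO spread of 1.77% was close to the 1.70% of counting error, against 7.63% in WT. With 3010 to 3807 fragments a library, its difference was 0.05 on the log2 scale (SE 0.07, 95% interval -0.10 to 0.19, adjusted p = 0.858, limma-voom). It was -0.0071 without WT library 3 and 0.10 without WT library 1. With striatal markers as a covariate it was 0.08, and among the 4 libraries with Y-linked expression it was 0.12 (unadjusted p = 0.127, limma-voom).

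The auxiliary genes had the smallest fitted differences of the 7. *Neto1* was at 152, 166 and 163 CPM in KO libraries 1, 2 and 3 and at 163, 160 and 159 CPM in WT libraries 1, 2 and 3. Its WT libraries varied by 1.30%, within the 2.23% of counting error, and they lay inside the KO range. The difference was -0.0049 on the log2 scale (SE 0.06, 95% interval -0.14 to 0.13, adjusted p = 0.988, limma-voom), and it ran from -0.0355 without KO library 2 to 0.0355 without KO library 1.

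*Neto2* was at 71.0, 78.4 and 62.3 CPM in KO libraries 1, 2 and 3 and at 76.3, 63.8 and 72.4 CPM in WT libraries 1, 2 and 3. KO library 2 was the highest and KO library 3 the lowest of all 6, so that the WT range lay inside that of KO. The difference was -0.01 on the log2 scale (SE 0.10, 95% interval -0.22 to 0.20, adjusted p = 0.983, limma-voom), and it ran from -0.0914 without KO library 2 to 0.0757 without KO library 3.

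**Figure D4:**
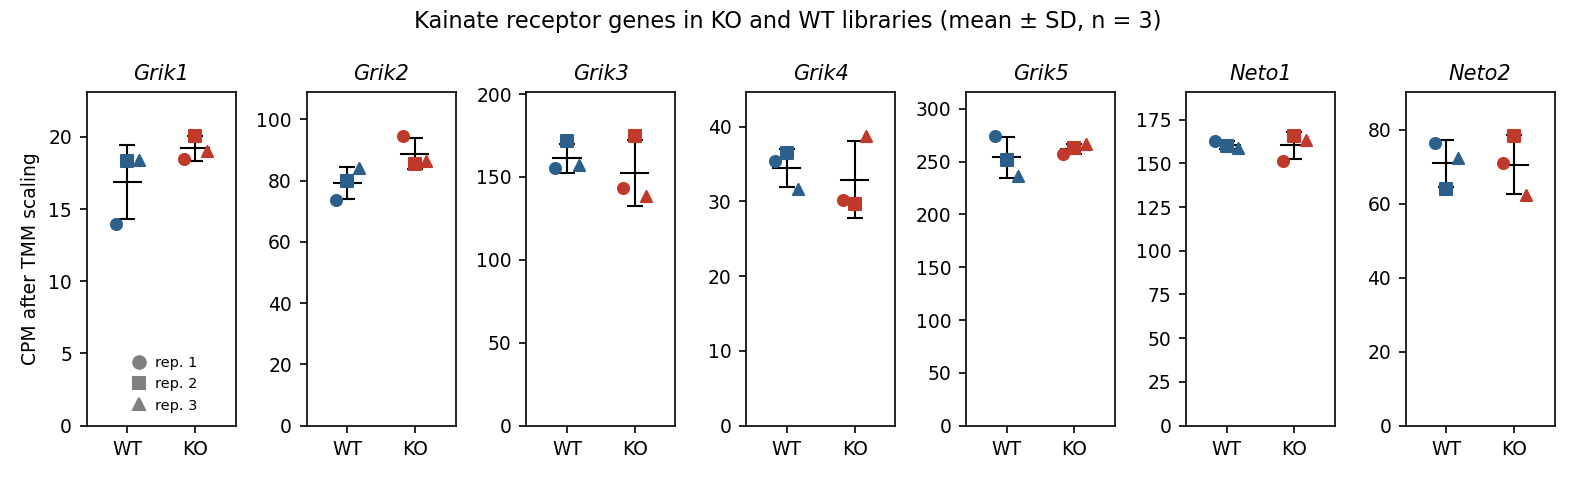
CPM after TMM scaling (vertical axes from 0, 1 panel per gene) in WT (blue) and KO (red) libraries, with symbols for replicate numbers and black bars for mean ± SD (n = 3). KO points lie above WT points in *Grik1* and *Grik2* by margins of 0.468% and 1.24%, and the groups overlap in the other 5 genes.

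Over the 7 genes, 3 fitted differences were above 0 and 4 below, with a median of -0.0049 on the log2 scale beside 0.0085 over all genes tested, of which 51.9% were above 0. All 7 of the 95% intervals lay within a 1.5-fold change in either direction. The widest was that of *Grik1*, from 0.952-fold to 1.38-fold, and the narrowest that of *Neto1*, from 0.906-fold to 1.10-fold. Missing the threshold does not show that the genotypes had equal levels.

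Genes that bind, place or modify kainate receptors were read from a list of 18, of which 17 were matched in the files and tested. After adjustment 0 of 17 passed the threshold, and at an unadjusted p under 0.05 (limma-voom) 0 were higher and 2 lower, beside 4.38% higher and 3.44% lower over all genes. *C1ql3*, a secreted C1q-like synaptic protein, was at 120, 126 and 131 CPM in KO libraries 1 to 3 and at 172, 153 and 125 CPM in WT libraries 1 to 3, a difference of -0.24 (SE 0.10, unadjusted p = 0.0308, adjusted p = 0.635). *Snap25*, a SNARE protein of vesicle fusion that also binds GluK5, was at 2263 to 2589 CPM in KO and 2589 to 3119 CPM in WT, a difference of -0.19 (SE 0.08, unadjusted p = 0.0351, adjusted p = 0.635). In both genes WT library 3 lay within or at the edge of the KO range. The median difference over the 17 genes was -0.04.

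In the sister families, 0 of 4 AMPA and 0 of 6 tested NMDA subunit genes passed the adjusted threshold. All 4 AMPA subunit genes had fitted differences above 0, of 0.0063 to 0.13 on the log2 scale, *Gria1* at 0.09 (SE 0.07), and their summed level was 747 ± 18.5 TPM in KO and 705 ± 21.1 TPM in WT, with the lowest KO library at 730.3 TPM and the highest WT library at 729.5 TPM. *Grin2c*, an NMDA receptor subunit, was at 76.7, 65.2 and 63.8 CPM in KO libraries 1 to 3 and at 55.0, 48.1 and 54.6 CPM in WT libraries 1 to 3. All its KO libraries were above all WT libraries, by a difference of 0.38 (SE 0.09, unadjusted p = 0.0011, adjusted p = 0.635, limma-voom), while *Grin1* differed by 0.0014 (SE 0.07). KO library 1, the highest in *Grin2c*, also held the highest summed olfactory bulb markers, whose part was not tested. *Grid1*, a delta receptor subunit, was at 54.4 to 59.1 CPM in KO and 60.8 to 67.1 CPM in WT without overlap, a difference of -0.16 (SE 0.07, unadjusted p = 0.0436, adjusted p = 0.635, limma-voom). Over all genes tested, 6.72% lay above and 6.29% below without overlap, and 51.9% had a fitted difference above 0. Before adjustment, the intervals of *Grik2* and *Grin2c* excluded 0 and those of the other kainate, AMPA and NMDA subunit genes tested included it.

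**Figure D5:**
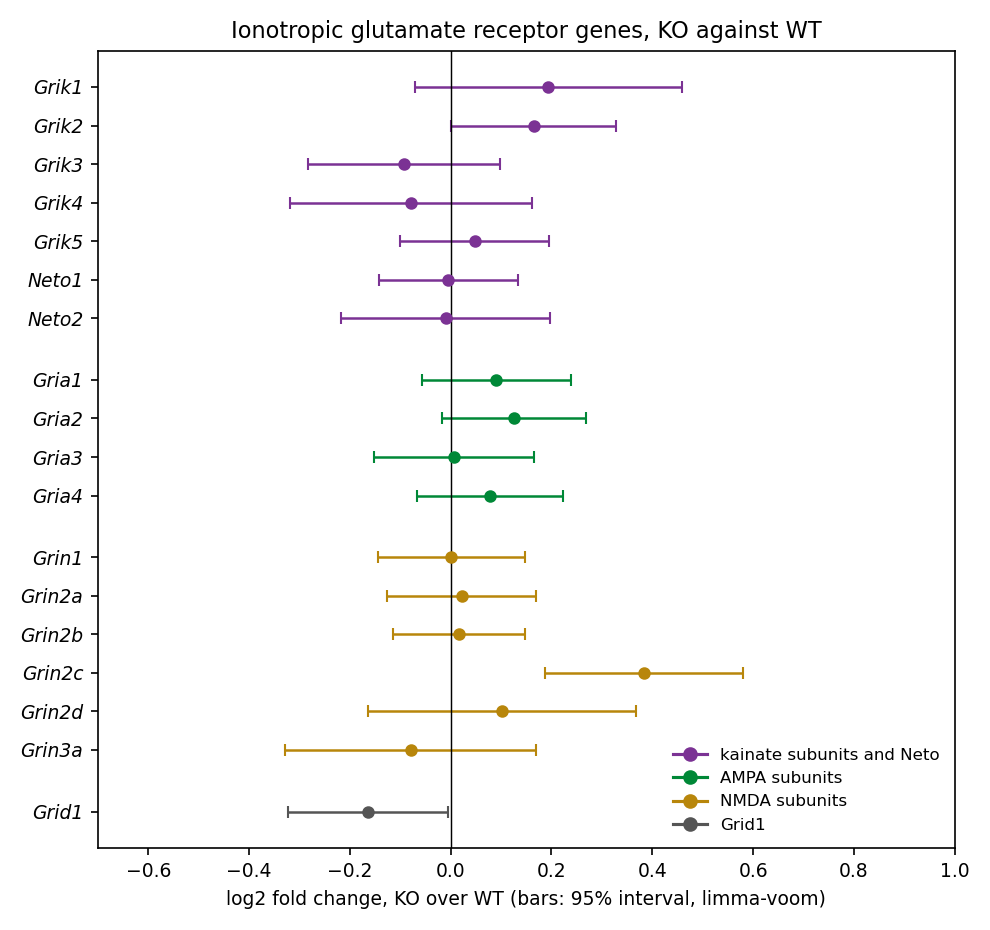
Log2 fold change, KO over WT, with 95% intervals from limma-voom (horizontal axis) for the kainate receptor genes (purple) and the AMPA (green) and NMDA (yellow) subunit genes tested and *Grid1* (grey). Among the kainate receptor genes the interval of *Grik2*, 0.0012 to 0.33, excludes 0, and those of the other 6 include it.

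For each member the gene with the most similar profile was sought among 10253 other genes with a mean of at least 10 CPM, by Pearson's r of log2 CPM over the 6 libraries. These were *Wipi1*, an autophagy protein, for *Grik1* (r = 0.992), *Fchsd2*, an F-BAR protein of endocytosis, for *Grik2* (r = 0.995) and *Psmc6*, a proteasome ATPase, for *Grik3* (r = 0.993). *Zfyve1*, a phosphoinositide-binding protein, was closest to *Grik4* (r = 0.989), and *Trim41*, a ubiquitin ligase, to *Grik5* (r = 0.983). *Cbx6*, a Polycomb protein, was closest to *Neto1* (r = 0.989) and *Ndufs4*, a subunit of mitochondrial complex I, to *Neto2* (r = 0.996). With 6 points, between 36 (*Grik5*) and 277 (*Grik2*) genes had an r over 0.9 to a member, so the values are a description and the points share library depth and tissue make-up. No member was the closest match of another.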

How the data were processed

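The deposited values are raw counts of fragments per gene for 6 prefrontal cortex samples. Per the labels and the file headers, the authors aligned reads with STAR 2.7.9a and counted exonic fragments with featureCounts 1.6.0, reverse-stranded, on GENCODE M31 (GRCm39); the study's methods name an earlier build. Groups and replicate numbers came from sample titles. The 7 members and all gene lists were chosen with earlier results of these data known.

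Genes with at least 6 fragments in at least 1 library were scaled by TMM (edgeR 4.0.16) and fitted with limma-voom (limma 3.58.1, R 4.3.3), two-sided, with Benjamini-Hochberg adjustment over all 19084 genes and a threshold of 0.05. The filter, edgeR normalization, voom and limma are those the study's methods name; the threshold was set here. Fits were tested on simulated data, and no outcome of that is given here. CPM used TMM-scaled totals; TPM used the exon lengths in the files. Fragment totals were 11792463 to 14594230, the part of depth in the precision was not tested, and intervals are at the 95% level. Alternatives were edgeR's quasi-likelihood test, DESeq2 1.42.0, other scalings, filters and weights, covariates, a replicate block and leaving out libraries. Windows around the pore-loop codon and transcript lengths came from GENCODE M21, whose build differs from that of the files.

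Genes named were the members and *Pla2g4e*; of the partner, AMPA, NMDA and delta lists, those with an unadjusted p under 0.05 and the AMPA and NMDA subunit of highest TPM; and the closest profile to each member. Marker genes were named to check the tissue, and *Gria2* and *Grin2b* after their values were seen. One listed gene is not reported here.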

Additional observations from a re-analysis of the deposited data

How the results depend on the processing

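With 3 libraries a group, the fits were limited to the intervals given, and the part of depth in their width was not tested. The count of kainate receptor genes past the adjusted threshold was 0 under each of the 18 alternatives. Over all genes that count was 0 in the reported fit, 1 by DESeq2, 23 with Y-linked expression as a covariate, 3 among the libraries with Y-linked expression and 0 to 1 with 1 library left out (1 without WT library 2). The count at an unadjusted p under 0.05 was 1492 in the reported fit, 902 by DESeq2, 979 with striatal markers as a covariate, 696 among the libraries with Y-linked expression (fewer samples) and 782 to 2239 with 1 library left out (830 without KO library 1, 782 without WT library 2 and 2239 without WT library 3). *Grik1* (0.06 to 0.26), *Grik2* (0.06 to 0.21) and *Grik3* (-0.20 to -0.03) kept their sign under all 18. *Grik2* had an unadjusted p under 0.05 in 5 of them, and its adjusted p over all 18 ran from 0.366 to 0.999. The others changed sign in places, and the cause was not tested. *Grik4* was -0.0078 with striatal markers as a covariate and 0.0035 among the libraries with Y-linked expression. *Grik5* was 0.0846 with striatal markers as a covariate and 0.1186 among the libraries with Y-linked expression. With 1 library left out, *Grik5* ran from -0.0071 (without WT library 3) to 0.10. *Neto1* was 0.0203 with library totals alone, 0.0011 with upper-quartile factors, 0.0104 with sample quality weights, 0.0453 among the libraries with Y-linked expression and -0.0355 to 0.0355 with 1 library left out. *Neto2* was 0.0148 with library totals alone, 0.0351 among the libraries with Y-linked expression and -0.0914 to 0.0757 with 1 library left out. A replicate block left 0 adjusted calls and 1693 genes at an unadjusted p under 0.05. Deviations from the group means correlated at 0.267, 0.0591 and -0.0199 between same-numbered libraries 1, 2 and 3. Differently numbered libraries were not compared, so these values cannot tell whether the numbers pair the samples. The use of transcript lengths, and of CPM for the kainate share of the 3 families, was chosen after seeing the data.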
